A study of Mus musculus with 41 samples.

Results

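T cell receptor V segments are the germline gene pieces that V(D)J recombination joins to J segments, and in the beta and delta chains to D segments, to build the variable part of a receptor chain. Trav segments serve the alpha chain, Trbv the beta chain, Trdv the delta chain and Tcrg-V the gamma chain, and the segments named with dv lie in the alpha locus and can be joined in either alpha or delta chains. A mature alpha beta T cell carries 1 productive beta chain and 1 or more alpha chains, whereas gamma delta T cells, which are common in the gut, use gamma and delta chains. Innate lymphoid cells (ILCs) bear no T cell receptor, but transcripts of receptor constant regions have long been known in them. All gene symbols of the single-cell gene list that start with Trav, Trbv, Trdv or Tcrg-V were taken as members, which gave 98 of 19221 genes, 67 Trav, 20 Trbv, 6 Trdv and 5 Tcrg-V.

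The study used 3' droplet sequencing to profile immune cells from the Peyer's patches and the small-intestinal lamina propria of female BALB/cJ mice aged 10 weeks. Food allergy mice, in which ovalbumin had been used to provoke inflammation, were compared with untreated controls, which the labels call wild type, and 27344 cells of food allergy and 30723 of controls were analysed. The 27 libraries with cells comprised 9 food allergy and 10 control libraries of Peyer's patches, 3 and 3 lamina propria libraries labelled nonTB and 1 and 1 labelled IgDLow, sort names that the labels do not explain. The 13 bulk libraries of cultured group 2 ILCs (ILC2s) list no V segment and were not used here.

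T cells were cells with at least 2 UMIs (unique molecular identifiers, counted molecules) of Cd3d, Cd3e and Cd3g together, and 15248 of 58067 cells met this. Of the 40359 cells with no UMI of Cd3d, Cd3e and Trac, 13910 also held at least 2 marker genes of ILC2s, of group 3 ILCs (ILC3s) or of NK cells or group 1 ILCs (ILC1s), more than of any other class, and were called ILCs. The threshold for T cells left 1281 cells at exactly 2 CD3 UMIs just inside and 3208 cells at 1 UMI just outside, and 347 cells met both definitions because Cd3g counts only in the first. Id2 and Lat, which lie outside the definitions, went with the labels. Id2, a factor all ILCs need, was seen in 72.4% of ILCs, against 28.0% of T cells. Lat, an adaptor of the T cell receptor, was seen in 71.2% of T cells, against 18.8% of ILCs. The beta constant gene Trbc1 did not separate the classes, at 63.6% of T cells and 66.6% of ILCs. The absence of Trac in the ILC definition bears on Trav, because a rearranged alpha transcript carries both a Trav and the Trac sequence, so a low Trav level in ILCs is in part what the definition selects.

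Libraries of Peyer's patches carried 1 of 5 dates in their titles, and what was dated is not stated, so sums of UMIs were formed per date and condition. Titles of dates 1 and 2 also hold the word location, with suffixes AD, AI and AJ in food allergy and CD, CI and CJ in controls. These libraries were summed together. On date 1 AD had no cells here, whereas CD gave 1633 of the 5036 control T cells. On that date condition and the locations summed cannot be told apart. The 13 libraries of dates 1 to 3 held 46.1 to 87.1% T cells and 1.32 to 5.27% ILCs, whereas the 6 libraries of dates 4 and 5 held 5.52 to 9.87% T cells and 46.3 to 53.5% ILCs, so 7314 of 8154 Peyer's patch ILCs came from dates 4 and 5 and 13039 of 14184 T cells from dates 1 to 3. The median depth was 2682 to 3975 UMIs per cell in libraries of dates 1 to 3, 2897 to 3632 in those of dates 4 and 5, and 1829 to 3441.5 in nonTB libraries. Libraries shared 2180 of 55713 distinct cell barcodes, at most 64 between any 2 libraries. Levels are given as UMIs of a member per 100000 UMIs of the cell class, in a 3' assay whose counts are not scaled to length. The labels do not say that libraries or sums came from separate animals, so the p-values speak of the spread over these sums, which may be technical.

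The 6 stretches below, the last 300 bases of each coding sequence, belong to members picked by their UMIs in T cells or ILCs. They are the gamma and delta segments most abundant in ILCs, the delta segment Trdv1 and the alpha segment with the most UMIs in T cells. Trdv1 had 108 of its 111 UMIs in T cells and none in ILCs. The stretches are from GENCODE M21 on build GRCm38 (mm10), all on the plus strand. Capitals run from the TGT codon of the conserved cysteine that opens the CDR3 loop to the germline end of the segment.
Trdv2-2, chr14:53960944-53961602: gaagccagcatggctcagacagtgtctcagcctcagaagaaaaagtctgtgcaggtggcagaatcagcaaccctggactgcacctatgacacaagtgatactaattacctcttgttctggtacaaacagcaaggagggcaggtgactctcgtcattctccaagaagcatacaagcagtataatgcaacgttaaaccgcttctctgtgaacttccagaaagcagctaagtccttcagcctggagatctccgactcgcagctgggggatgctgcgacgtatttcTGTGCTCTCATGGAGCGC
Trdv4, chr14:54074905-54075515: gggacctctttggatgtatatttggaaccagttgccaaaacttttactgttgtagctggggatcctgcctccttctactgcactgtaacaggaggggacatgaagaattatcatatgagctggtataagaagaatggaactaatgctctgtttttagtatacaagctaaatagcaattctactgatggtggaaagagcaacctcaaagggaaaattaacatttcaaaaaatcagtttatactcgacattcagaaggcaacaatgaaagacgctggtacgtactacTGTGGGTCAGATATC
Trdv1, chr14:53881612-53882217: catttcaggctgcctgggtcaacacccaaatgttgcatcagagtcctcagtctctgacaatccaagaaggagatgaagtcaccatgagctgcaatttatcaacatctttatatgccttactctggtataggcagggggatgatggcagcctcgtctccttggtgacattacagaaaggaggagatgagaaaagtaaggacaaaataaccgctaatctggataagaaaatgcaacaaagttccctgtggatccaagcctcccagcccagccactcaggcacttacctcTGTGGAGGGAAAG
Tcrg-V5, chr13:19192278-19192725: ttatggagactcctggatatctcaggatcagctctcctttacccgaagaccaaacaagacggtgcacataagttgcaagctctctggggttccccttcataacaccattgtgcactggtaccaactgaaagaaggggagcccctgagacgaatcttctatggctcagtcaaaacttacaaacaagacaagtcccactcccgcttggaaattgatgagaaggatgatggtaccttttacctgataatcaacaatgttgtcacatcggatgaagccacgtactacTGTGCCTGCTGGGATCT
Tcrg-V6, chr13:19190356-19190929: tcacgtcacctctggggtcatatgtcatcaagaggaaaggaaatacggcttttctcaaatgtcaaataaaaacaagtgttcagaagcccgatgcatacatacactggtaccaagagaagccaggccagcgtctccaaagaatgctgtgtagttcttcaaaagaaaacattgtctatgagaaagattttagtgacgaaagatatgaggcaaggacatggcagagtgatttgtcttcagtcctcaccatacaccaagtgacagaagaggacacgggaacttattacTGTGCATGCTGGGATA
Trav14d-3-dv8, chr14:53078452-53079045: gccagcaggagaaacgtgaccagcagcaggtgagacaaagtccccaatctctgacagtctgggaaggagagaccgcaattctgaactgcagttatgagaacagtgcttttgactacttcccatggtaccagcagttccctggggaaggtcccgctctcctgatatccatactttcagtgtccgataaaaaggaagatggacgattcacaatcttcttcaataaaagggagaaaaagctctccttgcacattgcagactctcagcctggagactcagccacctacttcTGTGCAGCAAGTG

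The gamma and delta segments are distinct sequences, which bears on how reliably reads can be told apart. The 5 Tcrg-V coding sequences were 44.5 to 60.1% identical to each other, and Trdv2-2 was 91.7% identical to Trdv2-1 but 51.5 to 53.1% identical to Trdv1, Trdv4 and Trdv5. Trav segments lie in repeated blocks on chromosome 14, and 48 of 64 with a coding sequence had another Trav at least 90% identical. Counts of single Trav members therefore depend on how reads shared by near copies were assigned, which the sources used here do not give. The Trdv5 gene overlaps one end of the Trdc gene on the opposite strand, and Trdv3, Trbv24, Trav4d-2, Trav9n-1 and Trav20 are annotated as pseudogenes.

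V segment UMIs were few and divided sharply by class. All 98 members together had 6268 UMIs, of which 4993 lay in T cells and 715 in ILCs. In T cells the alpha segments made up 84.8% of V segment UMIs, beta 8.39%, delta 6.03% and gamma 0.801%. In ILCs the delta segments made up 51.3% and the gamma segments 41.1%, against 5.31% for beta and 2.24% for alpha. Each of the 98 members had at least 2 UMIs in T cells, with a median of 32.5 and a highest value of 310. In ILCs 30 members had a UMI and 68 had none, and 4 members, Trdv2-2, Tcrg-V5, Trdv4 and Tcrg-V6, held 289, 204, 77 and 75 UMIs.

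**Figure D1:**
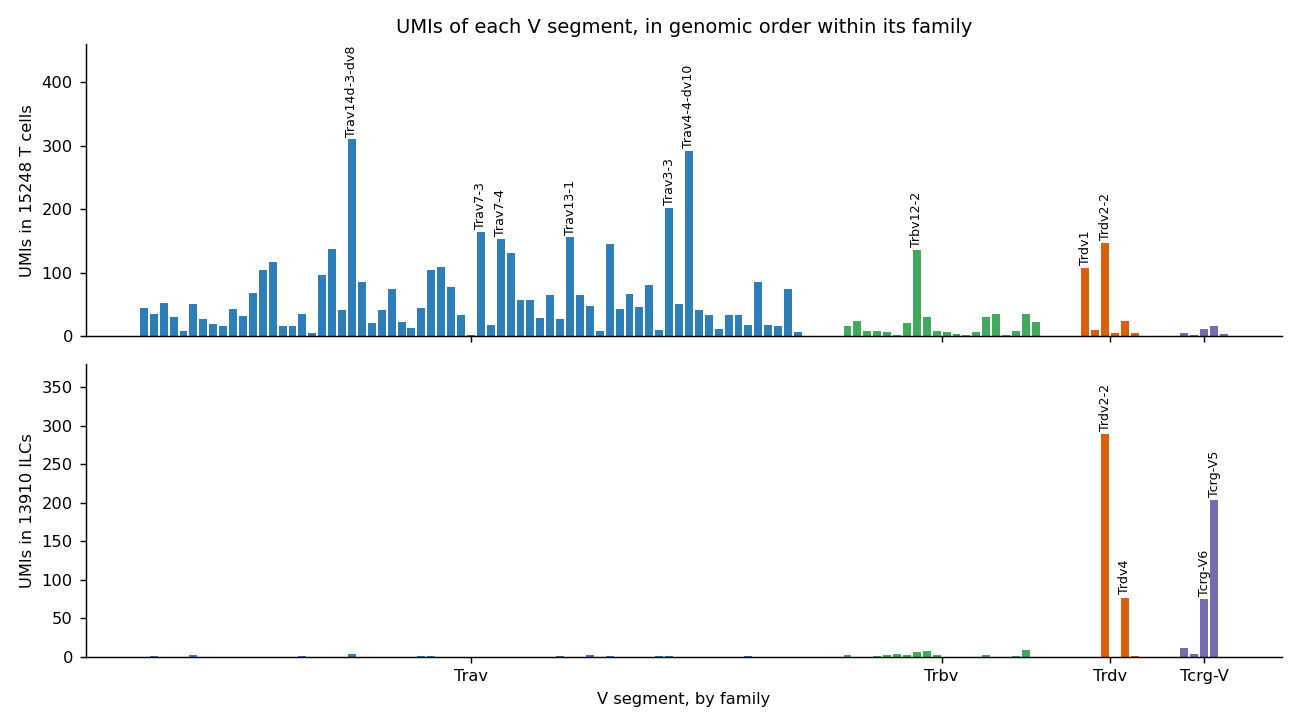
Bars give the UMIs of each of the 98 V segments, in genomic order within its family, in 15248 T cells (upper panel) and 13910 ILCs (lower panel). T cell UMIs spread over the alpha segments, with Trav14d-3-dv8 highest at 310, whereas ILC UMIs concentrate in Trdv2-2 (289), Tcrg-V5 (204), Trdv4 (77) and Tcrg-V6 (75).

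In Peyer's patches a Trav UMI was seen in 13.2% of 14184 T cells (95% exact interval 12.6 to 13.7%, median depth 3088 UMIs), against 0.159% of 8154 ILCs (0.0849 to 0.272%, median depth 2900). B cells, which do not express T cell receptors and serve as background, had a Trav UMI in 0.851% of 5405 cells at a median depth of 3562, so the pooled alpha share was lower in ILCs than in B cells. For Trbv the share was 2.71% in T cells (2.45 to 3.0%), against 0.368% in ILCs (0.248 to 0.525%), and B cells again lay above the ILCs at 0.87%. These pooled shares set unlike libraries side by side, because 5026 of the B cells came from dates 1 to 3 and 7314 of the ILCs from dates 4 and 5. On dates 1 to 3 ILCs had 0.168 Trav UMIs per 100000 (0.0457 to 0.43, exact Poisson interval) and 0.336 Trbv (0.145 to 0.661), against 0.184 Trav (0.134 to 0.245) and 0.188 Trbv (0.138 to 0.249) in B cells. On dates 4 and 5 ILCs had 0.0405 Trav and 0.103 Trbv, whereas the 379 B cells held no UMI of either, which allows up to 0.213. Within a date and condition Trav was higher in ILCs than in B cells in 4 of 10 pairs of sums and lower in 5, and Trbv was higher in 7 and lower in 3. A difference of ILCs from the B cell background was thus not detectable for alpha and beta segments at this depth.

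Genes of other cells also differed between the classes, since Cd79a, a B cell receptor subunit, was seen in 13.9% of T cells and 1.69% of ILCs, and Jchain, of plasma cells, in 18.4 and 37.4%. Without the 1136 T cells and 997 ILCs that held 3 or more markers of another class, Tcrg-V5 differed between T cells and ILCs by -2.39 on the log2 scale, against -2.48 with them.

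In the pooled shares the delta and gamma segments stood the other way round, though for Trdv this did not hold within dates 4 and 5. A Trdv UMI was seen in 1.47% of T cells (1.28 to 1.69%), against 3.58% of ILCs (3.19 to 4.01%), and a Tcrg-V UMI in 0.233% of T cells (0.16 to 0.327%), against 2.75% of ILCs (2.4 to 3.13%). In B cells both shares were 0.0555%, 3 cells each. Within a date and condition both families were higher in ILCs than in B cells in 9 of 10 pairs of sums and equal in 1, where both were at 0. On date 4, which held most of these UMIs in ILCs, ILCs had 3.03 Trdv UMIs per 100000 (2.65 to 3.46, exact Poisson interval), against 0.567 in B cells (0.0687 to 2.05, 2 UMIs), and 1.88 Tcrg-V (1.58 to 2.22), against 0.284 in B cells (0.00718 to 1.58, 1 UMI). The 38 plasma cells of that date held no Trdv UMI and 3 Tcrg-V UMIs, a level of 1.11 (0.229 to 3.24) whose interval covers that of the ILCs. On date 5 ILCs had 0.586 Trdv (0.469 to 0.723) and 0.552 Tcrg-V (0.439 to 0.685), against no Trdv UMI in 278 B cells, which allows up to 0.284, and 0.0945 Tcrg-V (0.00239 to 0.527). T cells had 3.12 Trdv (2.27 to 4.17) on date 4 and 0.842 (0.545 to 1.24) on date 5, not below the ILCs. On dates 1 to 3 T cells had 0.476 Trdv, against 0.755 in ILCs. Tcrg-V was lower in T cells than in ILCs, at 0.831 on date 4 and 0.303 on date 5. With each cell thinned to 1000 UMIs, which left out 171 shallower T cells, 248 ILCs and 127 B cells, Trdv was seen in 0.5% of T cells, 1.39% of ILCs and 0.0379% of B cells, and Tcrg-V in 0.05%, 0.961% and 0%. Intervals cover counting error only, and cells of 1 library are not independent samples.

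**Figure D2:**
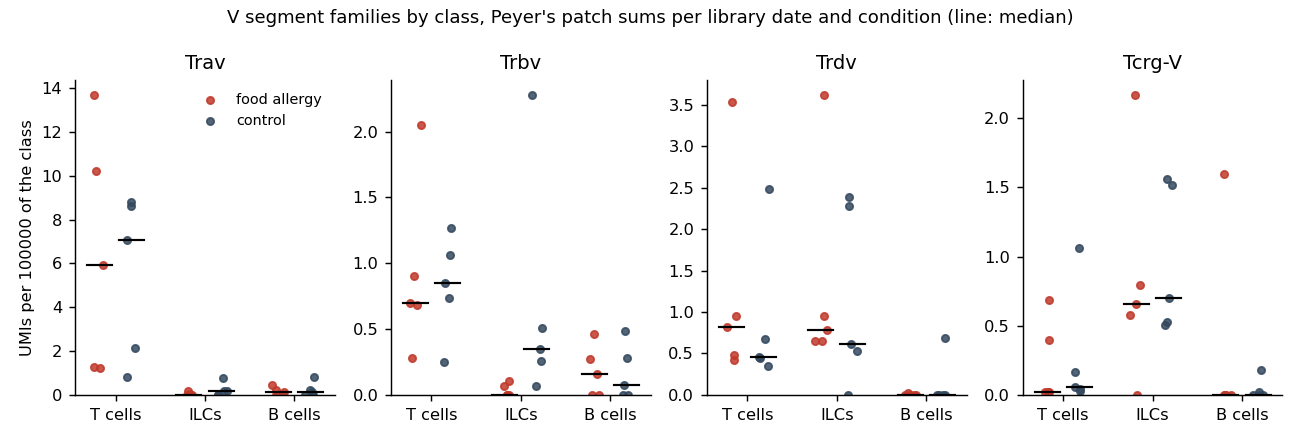
Each point is the level of a V segment family, in UMIs per 100000 UMIs of the class, in 1 Peyer's patch sum of a date and condition, for T cells, ILCs and B cells, with food allergy left of control and a line at the median. Trav in T cells spans 0.838 to 13.7, and in ILCs the highest Trdv and Tcrg-V values, 3.62 and 2.17, are both from food allergy sums of date 4.

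The T cells of Peyer's patches and the ILCs of the same dates and conditions were compared in 10 sums each. In this comparison 29.6% of 11536 tested genes passed edgeR's quasi-likelihood test at a Benjamini-Hochberg adjusted p of 0.05, 15.4% higher and 14.2% lower in T cells. The filter on low counts let 13 of the 98 members through, and 9 Trav were higher and Tcrg-V5 was lower in T cells, a count that says little of the family because each of these Trav passed the filter through the T cells alone. The most abundant alpha member, Trav14d-3-dv8, had 1.05, 0.739, 0.473, 0 and 0 UMIs per 100000 in T cells of food allergy on dates 1 to 5 and 0.628, 0.66, 0.547, 0 and 0.0838 in controls, whereas ILCs had 1 UMI in all 10 sums together. It was detected in T cells of dates 1 to 3 and hardly in those of dates 4 and 5. Its log2 fold change was 4.16 ± 0.64 (SE) in edgeR's fit and 3.33 ± 0.94 with DESeq2. Both are a description with no p, because it passed the filter through the T cells and the ILC definition leaves out cells with Trac. The other called Trav, Trav4-4-dv10, Trav7-3, Trav7-4, Trav13-1, Trav9-1, Trav9d-1, Trav3-3 and Trav4-3, were higher in T cells by 4.94 down to 3.41 on the log2 scale. Without the filter all 98 members were tested, 33 were higher and 1 lower, and 19.6% of the genes were called. DESeq2, which called 30.1% of the genes, found 2 of the 9 Trav higher, Trav14d-3-dv8 and Trav3-3, and 2 members lower, Tcrg-V5 and Tcrg-V6.

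Tcrg-V5 encodes a gamma V segment that lies next to Tcrg-V6 upstream of the constant gene Tcrg-C1. T cells had 0, 0, 0.0105, 0.228 and 0.225 UMIs per 100000 of it in food allergy on dates 1 to 5 and 0.00641, 0.0125, 0.0576, 0.885 and 0 in controls. ILCs had 0.655, 0, 0.792, 1.81 and 0.329 in food allergy, against 0.0875, 0.508, 0.759, 1.45 and 0.331 in controls. ILCs were the higher class in 9 of 10 pairs of sums, and both were at 0 in food allergy of date 2. The log2 fold change of T cells over ILCs was -2.48 ± 0.64 in edgeR's fit, and -3.2 ± 0.78 without date 4 and without the filter. These are given with no p, because Tcrg-V5 passed the filter through the ILCs. In Peyer's patches ILCs held 179 of its UMIs, against 16 in T cells. Tcrg-V6 pointed the same way by -1.39 ± 0.88 without passing edgeR's test (adjusted p = 0.28). DESeq2 gave -2.42, with no p here for the same reason, since ILCs held 49 of its UMIs, against 9 in T cells.

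For the delta segments no difference between T cells and ILCs passed edgeR's test. Trdv2-2 differed by -0.37 ± 0.31 on the log2 scale (adjusted p = 0.43) and Trdv4 by 0.04 ± 0.66 (adjusted p = 0.98), so the pooled shares above, which weight dates 4 and 5 heavily for ILCs, do not carry over to sums compared within a date. In T cells Trdv2-2 had 0.241, 0.227, 0.126, 3.3 and 0.281 UMIs per 100000 in food allergy on dates 1 to 5 and 0.256, 0.0747, 0.346, 1.95 and 0.419 in controls. In ILCs it had 0.655, 0, 0.792, 3.23 and 0.434 in food allergy, against 0.612, 0, 2.28, 1.88 and 0.331 in controls. Both classes were highest or nearly so on date 4, in both conditions.

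Genes that work with the V segments moved in both directions between the same sums. Of the 8 constant region genes, which encode the part of each chain that anchors it in the membrane, 7 were tested and 5 were higher and 2 lower in T cells, Trac, which defines the ILCs, among the 5, with a list median of 1.23 against 0.03 over all tested genes (log2). Trdc, the delta constant region, was higher by 2.15 ± 0.25 (adjusted p = 1.9e-05) and Tcrg-C2 by 2.06 ± 0.32 (0.00023), whereas Tcrg-C1, the constant gene nearest to Tcrg-V5 and Tcrg-V6, was lower by -2.76 ± 0.49 (0.00059) and Tcrg-C4 by -1.53 ± 0.55 (0.048), all by edgeR's quasi-likelihood test. Of the recombination and pre-receptor genes 4 of 6 were tested and all 4 were higher in T cells. Of 8 proximal signalling genes 7 were higher, and Zap70, a kinase that the activated receptor recruits, differed by -0.17 without passing the test. The 4 CD3 and zeta genes were higher too, 3 of which define the T cells. Constant region transcripts were common in ILCs, with Trbc1 seen in 66.6% of them, Trbc2 in 61.8% and Tcrg-C1 in 37.7%, against 6.44, 11.7 and 0.839% of B cells. In T cells the shares were 63.6, 92.5 and 5.16%.

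Within the ILCs the gamma and delta segments were divided by subset. Subsets were set by which of the 3 marker lists had most genes detected, with no V segment in the lists, which gave 2188 ILC2s, 8072 ILC3s and 2987 NK cells or ILC1s, and 663 tied cells were left out. Of the Trdv2-2 UMIs in ILCs 243 of 289 lay in NK cells or ILC1s, of the Tcrg-V5 UMIs 157 of 204 and of the Tcrg-V6 UMIs 57 of 75 in ILC3s, and of the Trdv4 UMIs 38 of 77 in ILC2s, the smallest subset. In Peyer's patches a Trdv UMI was seen in 9.35% of 2299 NK cells or ILC1s (8.19 to 10.6%), 4.19% of 884 ILC2s (2.96 to 5.72%) and 0.703% of 4554 ILC3s (0.481 to 0.991%), at median depths of 2710, 3483 and 2919 UMIs. A Tcrg-V UMI was seen in 1.0% of NK cells or ILC1s (0.635 to 1.5%), 1.92% of ILC2s (1.12 to 3.06%) and 3.75% of ILC3s (3.22 to 4.35%). Thinned to 1000 UMIs, the Trdv shares were 3.72, 1.17 and 0.249% and the Tcrg-V shares 0.269, 0.585 and 1.31%, in the same order.

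Trdv2-2, a delta V segment, was the member with most UMIs in ILCs. In NK cells or ILC1s of Peyer's patches it had 1.97, 0, 3.61, 8.17 and 1.33 UMIs per 100000 in food allergy on dates 1 to 5 and 2.23, 0, 7.24, 5.99 and 0.851 in controls. In ILC3s it had 0, 0, 0, 0.385 and 0 in food allergy, against 0, 0, 0, 0.46 and 0.153 in controls. NK cells or ILC1s were higher in 8 of 10 pairs of sums, and on date 2, where they numbered 11 and 16 cells, both subsets were at 0. A count of 0 in those 2 sums allows levels of up to 10.1 and 6.29. In this comparison, chosen after the data had been seen, 45.0% of 6797 tested genes passed edgeR's test, 21.3% higher in NK cells or ILC1s, and Trdv2-2 was the 1 member past the filter. Its difference was 4.15 ± 0.30 on the log2 scale, given as a description with no p because the comparison was prompted by where its UMIs lay and it passed the filter through NK cells or ILC1s. Members in the other comparisons of ILC subsets are likewise given with no p, except in the planned one of ILC2s with ILC3s in the lamina propria.

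The same segment gave 4.18 ± 0.51 with DESeq2. Without date 4, which held 114 (food allergy) and 54 (control) of its 226 UMIs in these cells, it fell below the filter, and with the filter dropped as well the difference was 4.21 ± 0.50. In the lamina propria nonTB libraries NK cells or ILC1s had 1.64, 3.06 and 0 UMIs per 100000 in food allergy, against 2.28, 1.67 and 0.434 in controls, whereas ILC3s had 0, 0 and 0.129 in food allergy, against 0, 0 and 0.136 in controls. NK cells or ILC1s were higher in 5 of these 6 libraries. No member passed the filter there, where 26.9% of 6594 genes were called, and without it, beside 14.2% of the genes, the difference of Trdv2-2 was 4.31 ± 0.97.

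Trdc followed the same contrast, higher in NK cells or ILC1s than in ILC3s by 6.15 ± 0.21 in Peyer's patches and by 6.74 ± 0.38 in the lamina propria. The ILC definition leaves out no cell for a Trdc or Cd3g UMI. Cd3g was also higher in NK cells or ILC1s than in ILC3s, by 1.95 ± 0.2 in Peyer's patches and 2.15 ± 0.31 in the lamina propria. ILC2s were higher than ILC3s in Cd3g too, by 2.28 ± 0.18 and 2.96 ± 0.21. Whether gamma delta T cells with no Cd3d or Cd3e UMI lie among the ILCs was not tested. Constant regions and Cd3g are given with no p in the comparisons chosen after the data had been seen. Segment and constant region were also read in the same cells. Among NK cells or ILC1s with a Trdc UMI 80 of 719 had a Trdv2-2 UMI (11.1%, 8.92 to 13.7%), against 132 of 2268 without (5.82%, 4.89 to 6.86%), at median depths of 2675 and 2431 UMIs. The 132 cells make up the larger part, so most cells with a Trdv2-2 UMI had no Trdc UMI at this depth. Whether V and constant region UMIs came from joined transcripts cannot be read from these counts, which hold no read sequences.

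Tcrg-V5 was the gamma segment most seen in ILC3s. In Peyer's patches ILC2s with at least 10 cells and ILC3s were compared in sums of the same date and condition, and 30.9% of 8022 tested genes passed edgeR's test, 15.8% lower in ILC2s. Tcrg-V5, the 1 member past the filter, differed by -1.38 ± 0.46 in ILC2s (log2), and DESeq2 gave -1.31 ± 0.60. In ILC2s it had 0.709 and 0.0944 UMIs per 100000 in food allergy on dates 4 and 5, against 1.32 and 0 in controls, and none in the sums of dates 1 to 3. In ILC3s it had 1.12, 0, 1.17, 3.08 and 0.516 UMIs per 100000 in food allergy on dates 1 to 5 and 0.135, 0.909, 0, 1.94 and 0.502 in controls. Date 4 was highest in both conditions. With the filter dropped, the difference of ILC2s from ILC3s was -2.94 ± 1.11 without date 4 and -1.24 ± 0.48 without date 5.

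NK cells or ILC1s differed from ILC3s in Tcrg-V5 by -1.86 ± 0.34 and in Tcrg-V6 by -1.82 ± 0.72 on the log2 scale in edgeR's fit without the filter, in which 25.5% of 17140 genes were called. Without date 4 the difference was -1.83 ± 0.67 for Tcrg-V5 and -2.23 ± 1.0 for Tcrg-V6. Tcrg-C1 was lower in NK cells or ILC1s by -1.97 ± 0.11 in Peyer's patches and by -2.02 ± 0.14 in the lamina propria. In ILC2s Tcrg-C1 was higher than in ILC3s by 1.78 ± 0.11 in Peyer's patches. In the planned comparison of the lamina propria the difference was -0.02 ± 0.12 (adjusted p = 0.91 by edgeR's test).

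In ILC3s a Tcrg-V5 UMI was seen in 78 of 3438 cells with a Tcrg-C1 UMI (2.27%, 1.8 to 2.82%), against 71 of 4634 without (1.53%, 1.2 to 1.93%), at median depths of 2550 and 2119 UMIs, and the 2 intervals overlap. For Tcrg-V6 the shares were 1.02% (0.71 to 1.41%) with a Tcrg-C1 UMI, against 0.432% (0.264 to 0.666%) without. In the nonTB libraries ILC3s had 0.489, 0.606 and 0 UMIs per 100000 of Tcrg-V5 in food allergy, against 0.717, 0.364 and 0.136 in controls, whereas 1103 ILC2s, at a median depth of 1556 UMIs, held no UMI of any Tcrg-V. That allows up to 0.272% of ILC2s to show a UMI and sets no limit on how many express the genes. In the IgDLow libraries ILC2s did hold Tcrg-V UMIs, 3 in food allergy (1.07 per 100000) and 1 in controls (0.522), against 0.568 and 0.674 per 100000 in ILC3s of food allergy and controls.

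Trdv4, a delta segment that lies between Trdv2-2 and Trdc, was most seen in ILC2s. In Peyer's patches ILC2s had 0.709 and 0.85 UMIs per 100000 in food allergy on dates 4 and 5, and 0.878 and 1.38 in controls. The sums of dates 1 to 3 with at least 10 ILC2s held 11 to 32 of them and single UMIs in food allergy of dates 2 and 3 (2.68 and 0.714). It fell below the filter against ILC3s, and without the filter, where 18.7% of 16890 genes were called, its difference in ILC2s was 3.48 ± 0.59 (log2), 5.2 ± 0.96 without date 4 and 2.04 ± 0.87 without date 5. In the nonTB libraries ILC2s had 2, 3 and 3 UMIs in food allergy, against 0, 0 and 0 in controls. The levels in food allergy were 0.653, 0.748 and 1.03 UMIs per 100000, 0.802 over the 3 libraries together (0.346 to 1.58, exact Poisson interval), and the count of 0 over the 3 control libraries allows up to 0.376. These limits cover counting error only, and no test was made in ILC2s alone. Over all nonTB ILCs the difference of food allergy from control was 3.01 ± 1.31 (log2; unadjusted p = 0.022, adjusted p = 0.27 by edgeR's test without the filter). No Trdv4 cell among ILC2s had a Trdc UMI, but only 36 ILC2s had one.

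The other members of these 2 families were rare in ILCs. Tcrg-V7 had 12 UMIs, 7 of them in ILC3s, Tcrg-V4 had 3, Trdv5 had 1, and Trdv1, Trdv2-1, Trdv3 and Tcrg-V3 had none. In T cells Tcrg-V5, Tcrg-V6, Tcrg-V7, Tcrg-V3 and Tcrg-V4 had 16, 12, 5, 4 and 3 UMIs. The beta segments with most UMIs in ILCs, Trbv29, Trbv13-2 and Trbv12-2, had 9, 8 and 6. In the planned comparison of ILC2s with ILC3s of the lamina propria no member passed the filter, while 32.6% of 7016 tested genes were called, and without the filter none of 8 members passed at an adjusted p of 0.05, with Tcrg-V5 at -4.01 ± 1.76 and Trdv4 at 2.86 ± 1.25 (adjusted p = 0.1 each, unadjusted 0.023 and 0.022, edgeR's test).

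**Figure D3:**
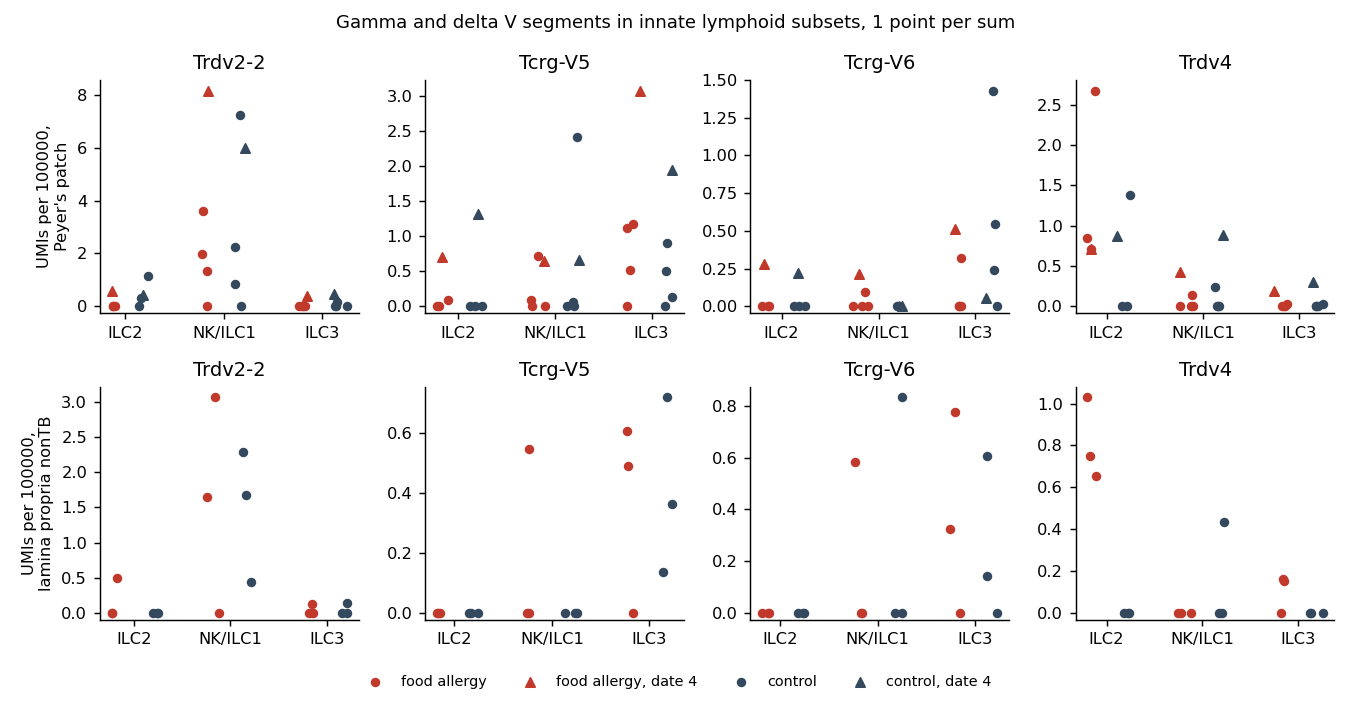
Points give the level of 4 gamma and delta V segments, in UMIs per 100000 UMIs of the subset, in each Peyer's patch sum (upper row) and nonTB library (lower row), for ILC2s, NK cells or ILC1s and ILC3s with at least 10 cells, food allergy left of control and date 4 as triangles. Trdv2-2 reaches 8.17 in NK cells or ILC1s and at most 0.46 in ILC3s of Peyer's patches, and Tcrg-V5 reaches 3.08 in ILC3s on date 4.

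Among T cells the 10 members with most UMIs were 8 Trav, Trdv2-2 and Trbv12-2. Trav14d-3-dv8 had 310 UMIs in 222 cells, Trav4-4-dv10 292 in 118, Trav3-3 202 in 123, Trav7-3 165 in 93, Trav13-1 156 in 84, Trav7-4 154 in 71, Trdv2-2 147 in 129, Trav4-3 145 in 63, Trav16d-dv11 137 in 75 and Trbv12-2 136 in 130. The alpha family had 2.22 UMIs per positive Peyer's patch T cell on average, whereas the beta family had 1.05. Over all T cells 1032 of the 1922 with a Trav UMI held only 1. For single members the mean can be lower, such as 1.4 for Trav14d-3-dv8, against 1.05 for Trbv12-2. A single cell can thus weigh more in the counts of an alpha segment. In Trav8d-2, with 96 UMIs in 24 cells, 1 cell held 19.

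The levels of Trav, Trdv and Tcrg-V in T cells spread widely over the dates. Trav had 13.7, 10.2, 5.92, 1.25 and 1.29 UMIs per 100000 in T cells of food allergy on dates 1 to 5 and 8.79, 8.6, 7.06, 2.12 and 0.838 in controls. Trdv had 0.824, 0.417, 0.484, 3.53 and 0.956 in food allergy, against 0.448, 0.349, 0.461, 2.48 and 0.671 in controls, and Tcrg-V 0.0201, 0.0189, 0.021, 0.683 and 0.394 in food allergy, against 0.0448, 0.0249, 0.0576, 1.06 and 0.168 in controls. Dates 4 and 5 were low in Trav and date 4 was high in Trdv and Tcrg-V, in both conditions. These 2 dates held 1145 of the 14184 T cells, and the cells collected, the date and the segment levels cannot be told apart.

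**Figure D4:**
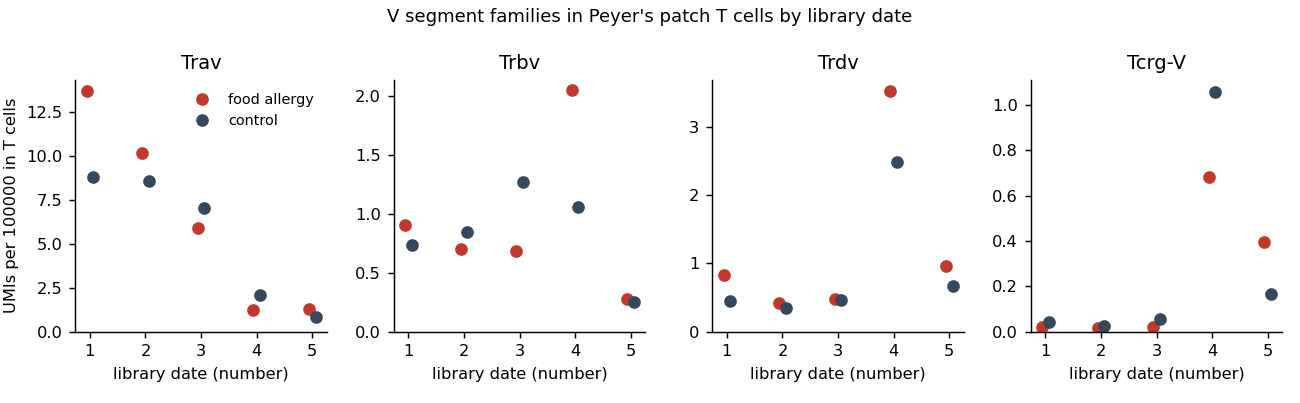
Each panel gives the level of 1 V segment family in Peyer's patch T cells, in UMIs per 100000 of their UMIs, against the date of the libraries, for food allergy and control. Trav is at most 2.12 on dates 4 and 5, whereas Trdv (3.53 and 2.48) and Tcrg-V (0.683 and 1.06) are highest on date 4.

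The effect of food allergy on V segments in T cells was tested with the date as a term, on 5 sums against 5. The date 1 sums of food allergy and controls did not hold the same locations, as given above. None of the 23 members tested passed edgeR's test, and 0.018% of the 11135 genes did. DESeq2 called 0.0808% of the genes and gave none of the 23 members an adjusted p. It placed none of the 23 below an unadjusted p of 0.05, with 15 above 0 and 8 below 0 on the log2 scale. At an unadjusted p under 0.05 edgeR placed 4 members, all higher in food allergy, where 3.76% of all tested genes fell below that value and 1.56% of all tested genes did so with a higher level in food allergy. These were Trdv1 at 1.35 ± 0.53, Trav4-3 at 1.10 ± 0.42, Trav3-3 at 0.84 ± 0.35 and Trav4-4-dv10 at 0.75 ± 0.32 (log2), each with an adjusted p of 1.0.

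Trav4-4-dv10 had 0.965, 0.985, 0.4, 0 and 0 UMIs per 100000 in food allergy on dates 1 to 5 and 0.641, 0.424, 0.317, 0.177 and 0 in controls. Food allergy was higher on dates 1 to 3, and date 4 had a single UMI in controls. Trdv1 had 0.543, 0.17, 0.295, 0 and 0.112 in food allergy, against 0.16, 0.187, 0.0576, 0 and 0 in controls, counts of 27, 9, 28, 0 and 2 UMIs in 12, 4, 9, 0 and 2 cells of food allergy. Its 108 UMIs in all lay in 52 cells, so few cells decide each sum. Of the 52 cells 46 had a Trac UMI (88.5%) and 2 a Trdc UMI (3.85%), and no Trdv1 UMI was found in ILCs. Among all 15248 T cells 10989 had a Trac UMI and 1081 (7.09%) a Trdc UMI.

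In the ILCs no member passed the test for food allergy. In Peyer's patches 2 members passed the filter and none was called, beside 0.527% of 8536 genes, with Tcrg-V5 at 0.17 ± 0.32 (adjusted p = 1.0) and Trdv2-2 at 0.49 ± 0.28 (adjusted p = 0.79) by edgeR's test, where neither had an unadjusted p under 0.05 (0.6 and 0.1) and DESeq2 called neither. For Trdv2-2 in ILCs date 4 had 3.23 UMIs per 100000 in food allergy, against 1.88 in controls, and date 5 had 0.434 in food allergy, against 0.331 in controls. In the nonTB libraries no member passed the filter, where 4.19% of 8736 genes were called.

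CD8 T cells, with a Cd8a or Cd8b1 UMI and no Cd4 UMI, and CD4 T cells, with the reverse, were compared in Peyer's patches. A Trav UMI was seen in 13.5% of 3287 CD8 T cells, against 14.9% of 3560 CD4 T cells, and a Tcrg-V UMI in 0.243%, against none, at median depths of 3486 and 3184 UMIs. Of 6 members tested 1 was called, lower in CD8 T cells, beside 12.4% of 9689 genes, 6.19% lower. Trav14d-3-dv8 was lower in CD8 T cells by -0.96 ± 0.32 on the log2 scale in edgeR's fit. This is given with no p, because Trav14d-3-dv8 passed the filter largely through the CD4 T cells, where it was higher. Trav14d-3-dv8 had 0.976, 0.146, 0.408, 0 and 0 UMIs per 100000 in CD8 T cells of food allergy on dates 1 to 5, against 1.27, 1.26, 0.439, 0 and 0 in CD4 T cells. In controls it had 0.245, 0.305 and 0.0976 in CD8 T cells on dates 1 to 3, against 0.582, 0.911 and 0.283 in CD4 T cells. CD4 T cells were higher in all 6 pairs of dates 1 to 3, and on date 5 the controls had 1 UMI in CD8 T cells (0.541), against none in 10 CD4 T cells. The call was lost with DESeq2 (-1.01, adjusted p = 0.18) and without date 2 (-0.53, adjusted p = 0.55). Without the filter Trbv20, a beta segment, was lower as well, by -3.93 ± 1.32 (adjusted p = 0.037, where 8.13% of 16172 genes were called).

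Of the other receptor genes, the constant regions of gamma and delta chains were higher in CD8 T cells, Trdc by 2.23 ± 0.19, Tcrg-C1 by 3.18 ± 0.30, Tcrg-C2 by 3.94 ± 0.24 and Tcrg-C4 by 3.3 ± 0.25, and Trac was lower by -0.35 ± 0.07 (adjusted p from 1.4e-14 to 0.00038, edgeR's test). For the delta segments 55 UMIs were counted in each group, with Trdv2-2 at 0.47 ± 0.45 (adjusted p = 0.63).

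T cells with a delta constant region and no alpha constant region could be looked at separately. A definition by Trdc with no UMI of Trac, Trbc1 or Trbc2 left 22 cells, so one with at least 2 Trdc UMIs and no Trac UMI was added after the data had been seen, and it found 409 cells. They had 1.64 Trav, 1.71 Trdv and 0.372 Tcrg-V UMIs per 100000, against 9.03, 0.491 and 0.0237 in 10560 T cells with Trac and no Trdc. For Trav and Trdv this is in part what the definitions select, because a rearranged transcript carries both its V segment and its constant region. Even among the 409 cells 22 Trav UMIs stood beside 23 Trdv UMIs, and members named with dv are counted as Trav here.

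In the lamina propria the pooled level of alpha segments was below that of Peyer's patch dates 1 to 3 and nearer that of dates 4 and 5. Trav had 1.7 UMIs per 100000 in 248 nonTB T cells and 2.66 in 816 IgDLow T cells, against 1.27 in the 1145 Peyer's patch T cells of dates 4 and 5 and 8.72 in the 13039 of dates 1 to 3. Single nonTB libraries were at 0 in all 3 controls and at 1.69 to 3.52 in food allergy. The 2 IgDLow libraries had 2.31 and 3.24, both above the 4 Peyer's patch sums of dates 4 and 5, which ranged from 0.838 to 2.12. Tcrg-V had 0.568 in nonTB T cells, which is 3 UMIs, and 0.0329 in IgDLow T cells, 1 UMI, against 0.476 on dates 4 and 5 and 0.032 on dates 1 to 3 in Peyer's patches. Pooled over all dates of Peyer's patches Trav had 8.08, and a Trav UMI was seen in 2.42% of nonTB, 6.0% of IgDLow and 13.2% of Peyer's patch T cells at median depths of 1671, 2645 and 3088 UMIs. Thinned to 1000 UMIs the shares were 0.893, 2.87 and 6.35%. Tissue, sort and date differ together, so no test was made, and the IgDLow sort had 1 library per condition. ILCs of the nonTB libraries had a Trdv UMI in 0.653% (0.441 to 0.931%) and a Tcrg-V UMI in 0.849% (0.604 to 1.16%) of 4594 cells, below the Peyer's patch shares, at a median depth of 1511 UMIs, and after thinning the shares were 0.405 and 0.455%. No V segment UMI was found in 200 B cells of these libraries.

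Single segments with a known role were looked up by list. BALB/c mice carry endogenous mouse mammary tumour virus superantigens that delete T cells using certain beta chains, and 4 of the 5 beta segments on that list were measured. Trbv15, Trbv12-1 and Trbv16 had 4, 3 and 2 UMIs in 15248 T cells, among the lowest beta counts, whereas Trbv12-2 had 136, the highest of all 20 Trbv. Trbv12-1 and Trbv12-2 are 88.2% identical. Trbv12-2 was seen in 0.853% of Peyer's patch T cells (0.708 to 1.02%), against 0.0613% of ILCs (0.0199 to 0.143%) and 0.0185% of B cells. Trav11, the alpha segment of invariant NKT cells, had 29 UMIs in 20 T cells, 11 UMIs among the 248 nonTB and 816 IgDLow T cells and 18 among the 14184 of Peyer's patches. Trav1, the alpha segment of MAIT cells, had 44 UMIs, 43 of them in Peyer's patches. Trbv26 and Trav11d were not analysed here.

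Several Trav segments were often counted in the same cell. Of 890 T cells with at least 2 Trav UMIs 435 held a single segment (48.9%, 45.5 to 52.2%), 338 held 2 and 117 held 3 or more, up to 6. For Trdv 39 of 44 such cells held a single segment. Among pairs in which both segments had a coding sequence, near copies made up most of the co-occurrences. Pairs at least 90% identical accounted for 431 of the 665 times that a T cell held both segments of such a pair. They were only 40 of the 213 such pairs seen at least once, of which 154 were under 60% identical. Pairs with a Trav pseudogene have no identity and are not counted, such as Trav9n-1 with Trav9-1, seen together in 53 cells. The 25 pairs of Trav segments at least 95% identical were seen together 10.1 times on average, the 34 pairs of 90 to 95% identity 5.24 times, and the 1729 pairs under 60% identity 0.101 times. Trav9d-1 and Trav9-1, 99.4% identical, were seen together in 63 cells, of 69 and 85 cells with each. Of 394 T cells with 2 or more Trav segments of known sequence, 269 (68.3%) held only segments at least 90% identical to another in the same cell, and the part of read assignment in this was not tested. An exception was Trav6n-6 and Trav6-5, which were 75.9% identical and shared 19 cells.

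**Figure D5:**
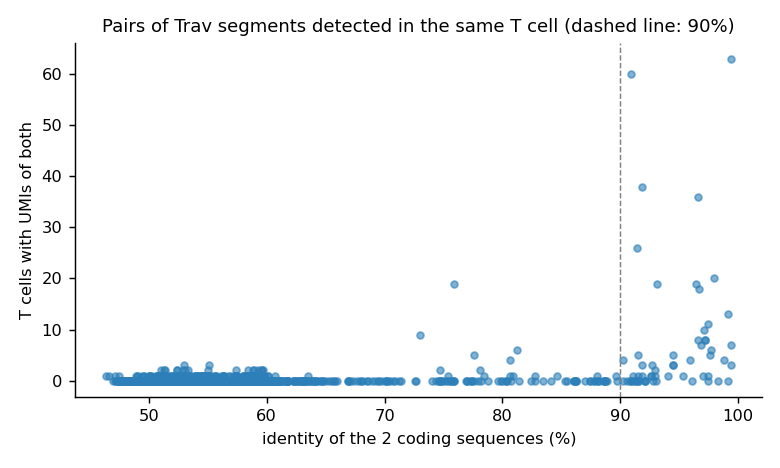
Each point is 1 of 2016 pairs of Trav segments, with the identity of their coding sequences in percent against the number of T cells with UMIs of both, and the dashed line marks 90%. Pairs under 60% identity share at most 3 cells, whereas Trav9d-1 with Trav9-1 share 63 and Trav4-3 with Trav4-4-dv10 share 60.

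The most frequent pair after Trav9 was Trav4-3 with Trav4-4-dv10, at 90.9% identity. It was seen in 60 cells, of 63 cells with Trav4-3 and 118 with Trav4-4-dv10. Both coding sequences are 331 bases long, and the last 300 bases of each are given here with the 30 bases at which they differ in capitals (GENCODE M21, GRCm38, plus strand).
Trav4-3, chr14:53598828-53599410: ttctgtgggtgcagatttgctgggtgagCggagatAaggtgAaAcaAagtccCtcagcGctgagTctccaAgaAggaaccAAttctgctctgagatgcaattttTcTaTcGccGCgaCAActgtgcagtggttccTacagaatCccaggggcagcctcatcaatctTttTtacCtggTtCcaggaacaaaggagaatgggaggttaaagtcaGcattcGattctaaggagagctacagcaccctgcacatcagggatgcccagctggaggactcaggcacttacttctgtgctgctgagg
Trav4-4-dv10, chr14:53683647-53684177: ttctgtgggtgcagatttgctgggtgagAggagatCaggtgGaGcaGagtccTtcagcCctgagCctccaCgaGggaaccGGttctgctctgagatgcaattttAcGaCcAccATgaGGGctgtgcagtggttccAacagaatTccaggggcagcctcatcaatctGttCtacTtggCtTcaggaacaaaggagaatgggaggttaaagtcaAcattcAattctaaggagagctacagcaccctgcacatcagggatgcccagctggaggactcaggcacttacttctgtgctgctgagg
No difference lies in the last part of the sequences, which leads into CDR3. Since Trav4-3 was hardly seen without Trav4-4-dv10, the 2 members, both near an unadjusted p of 0.05 for food allergy in T cells, are not separate evidence.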

How the data were processed

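Single cells of Peyer's patches and small-intestinal lamina propria were measured by 10x 3' sequencing. The authors deposited whole-number UMI counts per gene and cell, and the submitters' processing notes name bcl2fastq, Cell Ranger and build mm10; their versions, the rule for reads that fit several genes and the cell filter are not given here. The lowest cell held 501 UMIs. No doublet caller was run, and cells with 3 or more markers of another class were left out as an alternative. For 1 food allergy sample of Peyer's patches, replicate 1, no cells were analysed here.

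UMI counts were summed per class, library date and condition (Peyer's patches) or per library (lamina propria nonTB), with at least 10 cells per sum. The sums were tested with edgeR 4.0.16 (quasi-likelihood, filterByExpr, TMM, Benjamini-Hochberg at 0.05) over all genes, with the date, or the pairing of classes within a sum, as a term. Alternatives were DESeq2 1.42.0 with its size factors, no filter, cells of at least 1000 UMIs, other gates, sums per library and each date or library left out. The script was tested on simulated data. Shares have exact 95% binomial intervals, levels pooled over dates have exact 95% Poisson intervals, and a count of 0 allows up to 3 counts; all cover counting error only. Coding sequences came from GENCODE M21, where all 98 symbols matched and 93 had one.

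Members named in the text were those past 0.05 in a planned comparison, the 10 with most UMIs in T cells and in ILCs, all Trdv and Tcrg-V, and listed segments with known roles. Trav6n-6 with Trav6-5 and Trav8d-2 were named after their values were seen. The members and lists were chosen with earlier results of these data known, and the 3 comparisons of ILC2s or NK cells or ILC1s with ILC3s outside the planned one were chosen after seeing the data, so their members have no p. Replicate numbers of nonTB libraries were not taken as pairs.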

Additional observations from a re-analysis of the deposited data

Results flagged for a closer look

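Single sums lay far from the others of their group in 7 of 30 groups of sums examined, where chance gives about 1 in 20. On date 4 the Trdv level was 3.53 UMIs per 100000 in T cells of food allergy and 2.48 in those of controls, and in ILCs of food allergy it was 3.62. The Tcrg-V level in T cells of controls was 1.06 on the same date. On date 3 the 38 ILCs of controls had 0.759 Trav and 2.28 Trbv UMIs per 100000, which rest on 1 and 3 UMIs. Trdv4 in ILC2s of food allergy was 2.68 on date 2, a single UMI in 11 cells. The date 4 values were high for the delta and gamma families in both conditions, and what set that date apart was not tested.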

How the results depend on the processing

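The number of members called in T cells against ILCs of Peyer's patches was 10, and became 4 with DESeq2, 34 without the filter on low counts, 3 with each library as its own sum, and 32 and 27 without the filter and without date 4 or date 5; leaving out a date gave 4 to 10. For CD8 against CD4 T cells the 1 call became 0 with DESeq2 and 2 without the filter (0 to 1 over dates left out). In the comparisons of ILC subsets chosen after the data had been seen, counts of calls describe the settings only: for ILC2s against ILC3s of Peyer's patches the 1 call became 0 with DESeq2, with cells holding other markers left out, with each library as its own sum, and without the filter and date 5, and 2 without the filter (0 to 1). For NK cells or ILC1s against ILC3s of Peyer's patches the 1 call became 4 without the filter and 2 with cells holding other markers or meeting both gates left out, with each library as its own sum, and without the filter and date 4 or date 5 (0 to 2); in the lamina propria 0 became 1 without the filter (0 to 0). Without date 4 or 5 no member passed the filter in these Peyer's patch ILC comparisons. The 3 food allergy comparisons and ILC2s against ILC3s of the lamina propria stayed at 0 in every setting. Thinning each cell to 1000 UMIs gave shares of 6.35, 0.906, 0.5 and 0.05% for Trav, Trbv, Trdv and Tcrg-V in T cells, 0.0379, 0.126, 1.39 and 0.961% in ILCs, and 0.171 and 0.189% for Trav and Trbv and 0.0% for Tcrg-V in B cells, a loss that follows from the lower depth.

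Of the alternative values of single members 257 kept direction and call, 15 lost the call and 4 changed sign, none of them called: for food allergy, Trdv2-2 in T cells without date 2 (-0.19) and without date 4 (-0.10; -0.19 to 0.51 over dates left out), Trdv2-2 in Peyer's patch ILCs without the filter and date 4 (0.0), and Tcrg-V5 in those ILCs without cells holding other markers (-0.07); the cause was not tested. With the replicate block, food allergy in nonTB ILCs called 0 members and 178 genes, against 366 without it; same-numbered libraries correlated by 0.07, 0.05 and 0.14, so the numbers were not taken as pairs. Depth limits all of this: most members had under 50 UMIs in T cells and none in ILCs.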

Other observations

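Cells outside both definitions held V segment UMIs too. Plasma cells held 20 UMIs of Trav15-1-dv6-1, an alpha segment that can also join delta chains: in the nonTB libraries 7 UMIs in 1858 food allergy cells and 4 in 1654 control cells, in the IgDLow libraries 3 in 842 and 4 in 460, and in Peyer's patches 2 in 121 and none in 107. Among ungated cells 4893 plasmacytoid dendritic-like cells held 29 Tcrg-V UMIs, of which 22 were Tcrg-V5, and 4816 cells of no class held 57 Tcrg-V and 22 Trav UMIs. The 276 epithelial-like cells held 5 Tcrg-V UMIs, all Tcrg-V5, whereas 256 neutrophil-like cells held none.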
